A study of Mus musculus with 2 samples.

Results

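The 9 genes Retnla, Folr2, Lyve1, Cd163, Mrc1, Mgl2, Fcna, Gas6 and Cd209d were followed, out of 27998 genes counted, across the cells of normal and inflamed mouse skin. They had been picked because their levels fell in the C1q-expressing macrophages of this experiment, so their loss in those cells is a description of the choice and was given no test. Dorsal skin of C57BL/6 animals of wild-type genotype, 2 months of age and female per the design text, was dissociated with collagenase D and DNase and cleared of dead cells before droplet capture. The control library was made from control mice, whose treatment the labels do not describe further. The other library, called IMQ day 5, came from mice given imiquimod, a Toll-like receptor agonist cream that causes psoriasis-like inflammation, on the skin every day for 5 days. Each condition was 1 library and the sources used here do not give how many mice stood behind it, so no difference below has a replicate check. All intervals are 95% intervals that cover counting error only.

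Resident macrophages settle in the dermis around vessels and nerves, where they take up debris and haptoglobin-bound haemoglobin and hold back inflammation. The members are among the genes that mark this settled state. Most encode surface receptors or secreted proteins for binding sugars, ligands or dying cells, and several are classical targets of the cytokines IL-4 and IL-13 acting through the transcription factor STAT6.

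Cells were sorted into classes by transcripts other than the members. Cells with at least 3 unique molecular identifier counts (UMIs, 1 per captured transcript) of Tyrobp and Fcer1g together, which encode signalling adaptors of myeloid and other innate cells, were taken as myeloid. Of these, cells with at least 5 UMIs of C1qa, C1qb and C1qc, the chains of complement C1q made by macrophages, were called C1q-high, and cells with at most 2 were called C1q-low. There were 60 C1q-high cells among 10297 control cells (0.583%, exact interval 0.445 to 0.749%) and 122 among 8499 IMQ cells (1.44%, interval 1.19 to 1.71%), a share 2.46 times as large after imiquimod (interval 1.79 to 3.41). The gap around the gate was wide, with 1 control and 6 IMQ cells at 3 or 4 C1q UMIs. Macrophage markers (2 or more UMIs of a marker set that includes Csf1r, Fcgr1 and Adgre1) were found in 57 of the 60 and 112 of the 122 C1q-high cells, so the label of macrophages held in both libraries. Cd207, the Langerhans cell lectin, was found in 6.67% of control and 14.8% of IMQ C1q-high cells. Dendritic or Langerhans markers were found in 7 of 60 and 17 of 122, and neutrophil markers in 18 and 13. The neutrophil set rested on different genes in the libraries. In control C1q-high cells Mmp9 gave 70 UMIs, Csf3r 1, and Cxcr2 and Retnlg 0. In IMQ ones Mmp9 gave 10, Csf3r 61, Cxcr2 3 and Retnlg 103. Monocyte markers (Ly6c2, Plac8, Ccr2, Vcan) were found in 30 of 60 control and 52 of 122 IMQ C1q-high cells. Another lineage's gate was also passed by 6 and 10 of them, and the part of such cells in the results was not tested beyond the values without them given below. C1q-low cells were a mixture: T or NK cell markers were found in 184 of 378 control cells, and neutrophil markers in 300 of 1075 IMQ cells.

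The passing cells held 121631549 UMIs in control and 141358594 in IMQ, of which 461000 and 1389524 were in C1q-high cells. The median C1q-high cell had 5057 UMIs in control and 9419 in IMQ. Levels are given as CPM, a gene's UMIs summed over a class and scaled to a fixed total of UMIs, which corrects for this depth, and shares of cells are given at a common depth of 3000 UMIs per cell, to which 48 control and 101 IMQ cells were thinned while the 12 and 21 shallower ones were left out. Since 3' counting tags each transcript once, CPM can be set side by side between genes without dividing by length. The libraries shared 23 cell barcodes, none of them in C1q-high cells. Genes that mark fibroblasts and keratinocytes stood in C1q-high cells at a median of 12.6% of their level over all cells in control and 21.7% in IMQ, a measure of RNA from other cells.

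The promoters of 3 members are printed because they stand at the ends of the range of ratios: Retnla and Fcna with the largest differences and Mrc1 with the smallest. The stretches are those 5' of the gene in RefSeq on GRCm38, ended where the GENCODE gene begins. Capitals mark matches, on either strand, to short motifs named for the factors that bind such letters. The core of PU.1-type sites was searched as GAGGAA. The half-site of MAF factors was searched as TGCTGA, and C/EBP-type sites as TTGCNNAA. STAT6-type palindromes were searched as TTC followed, after 4 bases of any kind, by GAA. The TATA box was searched as TATAAA. The Retnla stretch lies at chr16:48842359-48842550 on the plus strand, the Fcna stretch at chr2:25628031-25628224 on the minus strand and the Mrc1 stretch at chr2:14229164-14229391 on the plus strand.
Retnla: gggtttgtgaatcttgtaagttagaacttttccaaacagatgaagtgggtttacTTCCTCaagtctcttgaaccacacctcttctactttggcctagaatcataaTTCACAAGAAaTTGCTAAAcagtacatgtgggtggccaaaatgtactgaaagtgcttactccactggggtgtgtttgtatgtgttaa
Fcna: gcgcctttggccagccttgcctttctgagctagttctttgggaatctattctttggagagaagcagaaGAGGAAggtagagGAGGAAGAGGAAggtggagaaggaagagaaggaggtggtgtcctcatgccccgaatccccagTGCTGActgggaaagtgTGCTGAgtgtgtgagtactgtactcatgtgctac
Mrc1: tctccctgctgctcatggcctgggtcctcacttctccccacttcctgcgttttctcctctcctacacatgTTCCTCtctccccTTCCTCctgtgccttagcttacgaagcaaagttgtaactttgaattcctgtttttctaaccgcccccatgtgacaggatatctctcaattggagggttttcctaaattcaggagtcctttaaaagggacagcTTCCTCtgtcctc
Distances are counted to the RefSeq start, and 58 bases of the Retnla window before that start lie inside the GENCODE gene. Windows of 250 bases before the RefSeq start were searched for 8 members. Only that of Retnla held a STAT6-type palindrome, 145 bases before the start. It was also the only one with a C/EBP-type site, 134 bases before the start. The same window held a TATA box 30 bases and a MAF half-site 47 bases before the start, both beyond the printed stretch. PU.1-type cores were found in 5 of the 8 members (3 each in Fcna and Mrc1) and MAF half-sites in 4. Among all 32851 windows of that length the shares were 5.85% for the STAT6-type palindrome, 9.56% for the C/EBP-type site, 12.4% for the TATA box, 23.3% for the PU.1-type core and 16.1% for the MAF half-site. These are matches of letters, not measured binding sites, and no binding was measured here.

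Retnla was the member that differed most. It encodes RELM-alpha, a small secreted protein of macrophages in type 2 immunity, and lies at chr16:48842551-48844461 (GENCODE M21, GRCm38, plus strand). In control C1q-high cells it gave 5180 UMIs, or 11236 CPM (interval 10933 to 11547), and was the third most abundant of all genes. In IMQ C1q-high cells it gave 0 UMIs in 122 cells, where a count of 0 allows up to 2.16 CPM and 2.46% of cells. The level was thus at least 5204-fold lower, with the floor of 3 counts set over the whole class. Retnla was carried by 35 of the 60 control cells (58.3%), and their median was 101 UMIs, so a positive cell was strongly positive. The cell with most held 746 UMIs, 14.4% of the total, and in it the gene made up 1564 of every 10000 UMIs. Over all cells of a library the UMIs numbered 5715 in control and 5 in IMQ.

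Fcna, which encodes ficolin A, a secreted lectin that binds microbial sugars and starts the complement cascade, had the next largest difference (chr2:25624666-25628030, minus strand). It had 202 UMIs (438 CPM) in control and 7 UMIs (5.04 CPM) in IMQ C1q-high cells, 87.0-fold lower (interval 41.5 to 219). The 7 UMIs were spread over 6 of the 122 cells and no cell had more than 2. At the common depth Fcna was found in 54.2% of control and 1.98% of IMQ cells.

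The lectin and uptake receptors came next. Mgl2, a macrophage galactose-type lectin that serves as the mouse marker CD301b (chr11:70130329-70137550, plus strand), went from 523 CPM (241 UMIs in 46 of 60 cells) to 29.5 CPM (41 UMIs in 13 of 122 cells), 17.7-fold lower (interval 12.7 to 25.3). Folr2, the folate receptor beta of tissue macrophages (chr7:101839988-101857194, minus strand), went from 868 CPM (400 UMIs in 49 cells) to 66.9 CPM (93 UMIs in 27 cells), 12.96-fold lower (interval 10.3 to 16.4). Among control cells Folr2 was one of the most widely shared members, found in 36 of 48 thinned cells, against 13 of 101 in IMQ. The highest cell had 42.8 Folr2 UMIs per 10000 in control and 7.24 in IMQ. Every IMQ C1q-high cell thus stood below the median of the control ones, 12.6 per 10000.

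Cd163, the receptor that clears haemoglobin bound to haptoglobin (chr6:124304656-124330527, plus strand), had 166 UMIs (360.1 CPM) in control and 91 UMIs (65.5 CPM) in IMQ C1q-high cells, 5.50-fold lower (interval 4.23 to 7.18). The IMQ UMIs sat in few cells: 7 of 122 had any, and the 5 highest held 95.6% of them, against 27 of 60 cells and 42.8% in control. Cd163 in IMQ skin was therefore held by a handful of cells. Mrc1, the mannose receptor CD206 (chr2:14229392-14332057, plus strand), was the member best kept. It had 497 UMIs (1078 CPM) in control and 685 UMIs (493 CPM) in IMQ cells, 2.19-fold lower (interval 1.94 to 2.46), and was still found in 78 of 122 cells. With size factors in place of total UMIs its log2 ratio moved from -1.13 to -0.97, on the other side of 2-fold.

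Lyve1, the hyaluronan receptor that marks perivascular macrophages as well as lymphatic vessels (chr7:110850607-110863239, minus strand), gave 165 UMIs (358 CPM) in control and 95 UMIs (68.4 CPM) in IMQ C1q-high cells, 5.24-fold lower (interval 4.04 to 6.81). A single IMQ cell held 74 of the 95 UMIs. That cell also passed the lymphatic endothelial gate, with 1368 UMIs of Prox1, Mmrn1 and Ccl21a, the last being a lymphatic chemokine, beside 10 UMIs of C1q. Without C1q-high cells that pass another lineage's gate the log2 ratio of Lyve1 was -4.89 in place of -2.39. At the common depth Lyve1 was found in 43.8% of control and 3.96% of IMQ cells.

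Gas6 and Cd209d complete the set. Gas6, the ligand that bridges dying cells to the receptors Axl and Mertk (chr8:13465374-13494490, minus strand), gave 222 UMIs (482 CPM) in control and 162 UMIs (117 CPM) in IMQ C1q-high cells, 4.13-fold lower (interval 3.36 to 5.09). The log2 ratio was -2.05, -3.13 without the cells that pass another gate and -3.16 after subtraction of free RNA. Cd209d, a mouse relative of the lectin DC-SIGN (chr8:3871824-3878555, minus strand), was the lowest member in control, with 52 UMIs (113 CPM) in 19 cells. After imiquimod it had 61 UMIs (43.9 CPM) in 5 cells, of which 34 UMIs were in 1 cell. The difference was 2.57-fold (interval 1.74 to 3.78), and the log2 ratio was -1.36 with that cell and -2.16 without the highest cell of each library. Cd209d has close relatives on the same chromosome, so reads could be split between them.

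**Figure D1:**
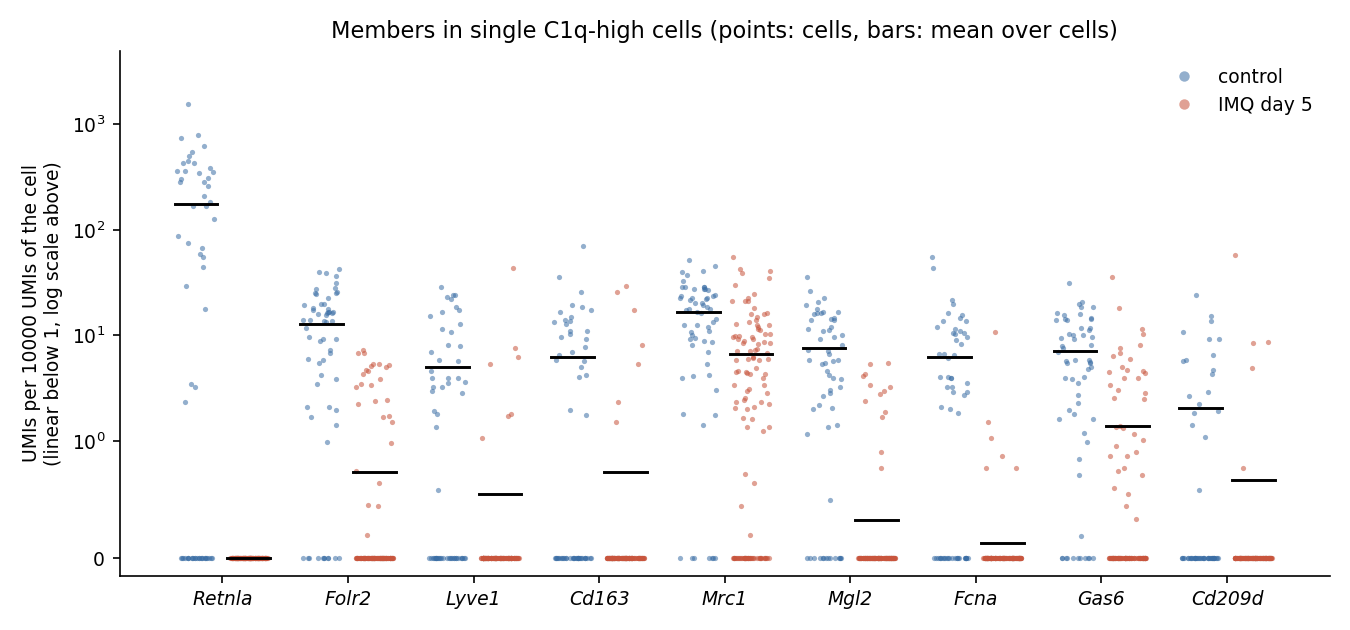
Members in single C1q-high cells, 60 of control and 122 of IMQ day 5. The y axis gives UMIs per 10000 UMIs of the cell, linear below 1 and on a log scale above, each point is a cell and each bar the mean over cells. All 122 IMQ cells are at 0 for Retnla, while for Mrc1 the clouds of the libraries overlap over most of their range.

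A gene was called lower or higher when the CPM differed at least 2-fold with an interval that left out equality, among 7685 genes with at least 20 UMIs in C1q-high cells of both libraries together. All 9 members were called lower, where 10.1% of the 7685 genes were; since the members were picked on this contrast nothing is read from that count. The median log2 ratio was -2.46 for the members and -0.06 for all genes. By the size of the ratio the members ranked from first (Retnla) and second (Fcna) to 717 (Mrc1). Across all genes 775 were called lower and 547 higher, while with size factors, which moved every log2 ratio up by 0.16, the numbers were 580 and 735. The lowest called genes that were not members included Clec10a (14.9-fold lower), Fxyd2 (12.4-fold) and Ednrb (11.03-fold), each spread over 29 or more control cells. Col17a1 and Serpinb2 were also among the 10 lowest but came from 4 and 7 control cells, with the highest cell passing the keratinocyte gate in both cases. Of the 5 highest genes S100a9, S100a8, Ccl21a, BC100530 and Mmp12, none was found in more than 24 of the 122 IMQ cells, and 95.1% of the Ccl21a UMIs were in the 1 cell with lymphatic genes described for Lyve1.

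In the control library the members occurred together. With every cell at 3000 UMIs, 37 of 48 C1q-high cells (77.1%, interval 62.7 to 88%) had at least 3 of the 9 members, and 14 of 48 had 8 or 9. The mean was 5 members per cell. In the IMQ library 9 of 101 cells (8.91%, interval 4.16 to 16.2%) had at least 3 members, the mean was 1.08 and no cell had more than 7. None of the members was found in 4 of the 48 control cells and in 36 of the 101 IMQ cells. For comparison, 22 of 281 control and 0 of 670 IMQ C1q-low cells had at least 3 members, which allows a share of up to 0.448% in the latter, and 1 of 6216 control fibroblasts did. In control cells with Folr2 at that depth (36 cells), Lyve1 was found in 21, Fcna in 26 and Retnla in 24, and in the 12 cells without Folr2 they were found in 0, 0 and 2. Thinned cells with Retnla held Lyve1 in 20 of 26 and cells without it in 1 of 22. Most members thus sat in the same control cells.

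**Figure D2:**
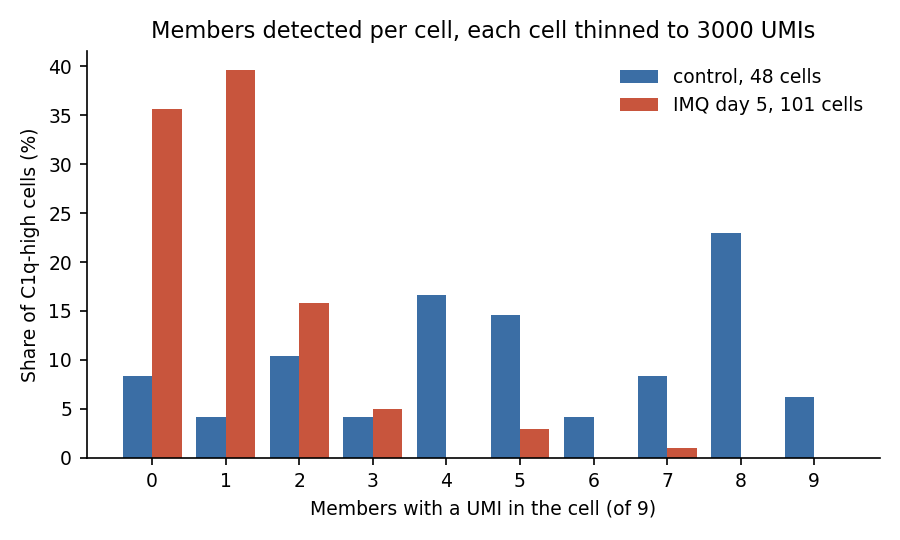
Number of the 9 members found per C1q-high cell, each cell thinned to 3000 UMIs. The x axis gives the number of members with a UMI, the y axis the share of the 48 control or 101 IMQ day 5 cells in percent; IMQ cells pile up at 0 and 1 member (36 and 40 cells), while 18 control cells have 7 or more.

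The C1q-high cells with a Folr2 UMI, 49 in control and 27 in IMQ, were set apart to see whether cells that kept one member kept the others. They did so in part. Mrc1 was at 1668 CPM in control and 1086 in IMQ Folr2-positive cells, and Cd209d at 184 and 163, but 1 IMQ C1q-high cell held 34 of the 61 UMIs of Cd209d, so its level rests on few cells. Cd163 was at 578 and 247 CPM and Gas6 at 754 and 188. Mgl2 (740.0 and 64.5), Lyve1 (596 and 58.9) and Fcna (729 and 19.6) were far lower in the IMQ cells, and Retnla was at 18438 CPM in control and at 0 UMIs in IMQ. Within the IMQ library some other genes of resident macrophages, named after their values were seen, were higher in Folr2-positive cells than in the 95 cells without Folr2. F13a1, a transglutaminase gene, was at 631 CPM against 111, Cbr2 at 356 against 26.1, and Pf4 at 1187 against 225. MHC class II was the other way round, with H2-Aa at 799 CPM in Folr2-positive and 3792 in Folr2-negative IMQ cells, where in control the values were 3462 and 3908. Arg1, which encodes arginase, had 0 UMIs in the Folr2-positive IMQ cells and 316 CPM in the Folr2-negative ones. The IMQ Folr2-positive cells were deeper, with a median of 11506 UMIs against 8467.

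Since C1q-high cells were more frequent after imiquimod, the members were also counted per 10000 cells of a library. Folr2-positive C1q-high cells numbered 47.6 per 10000 in control (interval 35.2 to 62.9) and 31.8 in IMQ (20.9 to 46.2), and Gas6-positive ones 47.6 and 43.5, so for both the intervals overlapped. Gas6 stood at 705 CPM in IMQ fibroblasts, and how many of the Gas6-positive C1q-high cells carried fibroblast RNA was not tested. Mrc1-positive cells were more numerous in IMQ, 91.8 against 51.5. For Retnla the numbers were 34.0 and 0, for Fcna 34.0 and 7.06, for Lyve1 30.1 and 8.24, for Mgl2 44.7 and 15.3, for Cd163 26.2 and 8.24 and for Cd209d 18.5 and 5.88. Because IMQ C1q-high cells held more UMIs per cell and the shares depend on what else was captured, these are shares of the captured cells and not densities in skin.

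Other classes of cells carried some members and hardly any of others. Folr2 was nearly confined to C1q-high cells, which held 91.3% of its control and 92.1% of its IMQ UMIs, as was Retnla in control (90.6%). C1q-high cells held 89.8% of the Fcna UMIs in control and 43.8% in IMQ, there 7 of 16. Fibroblasts, which should lack Retnla, showed a Retnla UMI in 85 of 6783 control cells (1.25%, median depth 9464 UMIs) and in 1 of 3432 IMQ cells. Keratinocytes showed one in 1.72% of control and 0 of 1711 IMQ cells. In control C1q-low cells 8 of 378 had Retnla, and 1 cell held 189 of the 222 UMIs. These low shares moved with the level in C1q-high cells, and whether they came from free RNA was not tested.

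Mgl2 and Cd209d had a larger pool outside the C1q-high gate. C1q-low cells held 72.2% of the control Mgl2 UMIs and 87.5% of those of Cd209d. There Mgl2 went from 767 UMIs (226 CPM) to 138 UMIs (21.1 CPM), 10.7-fold lower (interval 8.94 to 13), and Cd209d from 478 UMIs (141 CPM) to 72 UMIs (11 CPM), 12.8-fold lower (interval 9.98 to 16.6). The share of C1q-low cells with Mgl2 went from 16.4% to 2.09% at the common depth. Of the 54 control C1q-low cells with at least 2 Mgl2 UMIs, 45 carried markers of dendritic or Langerhans cells (2 or more UMIs of Cd207, Flt3, Zbtb46, Xcr1, Ccr7 and Cd209a), and of the 44 with Cd209d, 39 did. Such markers were found in 27.2% of all control and 7.35% of all IMQ C1q-low cells. The marker sets overlapped. Monocyte markers were found in 28 of the 54 Mgl2 cells and 28 of the 44 Cd209d cells, and macrophage markers in 27 and 19. Over all control C1q-low cells the shares were 34.4% for monocyte and 19.6% for macrophage markers. The dendritic set also holds Cd209a, a relative of Cd209d. Fewer cells of a type and less RNA per cell cannot be told apart from these sums.

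Cd163 in C1q-low cells went from 74 to 4 UMIs (21.8 to 0.611 CPM), and 19 of the 21 control cells with at least 2 UMIs carried dendritic or Langerhans markers. Monocyte markers were found in 12 of these 21 cells and macrophage markers in 8. Mrc1 in C1q-low cells was at 41.3 and 34.2 CPM (ratio 0.829, interval 0.668 to 1.03), and the markers of the cells that carried it differed. In control 27 of 32 cells with at least 2 Mrc1 UMIs had dendritic or Langerhans markers and 17 had monocyte markers (Ly6c2, Plac8, Ccr2, Vcan). In IMQ 5 of 37 had the former and 31 the latter. Macrophage markers were found in 19 of the 32 control and 35 of the 37 IMQ cells. Over all C1q-low cells monocyte markers were found in 34.4% in control and 53.8% in IMQ, and macrophage markers in 19.6% and 31.8%. In C1q-low cells as a whole 4 of the 6 members with at least 20 UMIs were called lower, where 12.9% of 11922 genes were, and 0 were called higher, where 7.87% were.

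Gas6 was a fibroblast transcript by amount. Fibroblasts held 75.5% of its UMIs in control and 78.4% in IMQ skin, and there it went the other way, from 19098 UMIs (278 CPM) to 33425 UMIs (705 CPM), 2.54-fold higher (interval 2.49 to 2.58). The share of fibroblasts with Gas6 at the common depth was 42.1% in control and 54.1% in IMQ. In fibroblasts 1 of the 6 members measured was called higher, where 11.3% of 14439 genes were, and 2 were called lower (Retnla and Mgl2), where 4.72% were. Keratinocytes had 119 CPM of Gas6 in control and 46.3 in IMQ, 2.57-fold lower (interval 2.44 to 2.70), and lymphatic endothelial cells 273 and 112 CPM. Over all cells Gas6 went from 208 to 301 CPM, and C1q-high cells held 0.878% of its UMIs in control. Whether the Gas6 ratios differ between classes beyond the spread of replicates cannot be tested with 1 library each.

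Lyve1 was a lymphatic transcript by amount. Cells that passed the lymphatic endothelial gate and no other gate but the blood endothelial one, 55 in control and 172 in IMQ, held 75.1% and 90.8% of its UMIs, and their level was 1465 CPM (729 UMIs) in control and 2236 CPM (4697 UMIs) in IMQ, 1.53-fold higher (interval 1.41 to 1.65). Over all 112 control and 235 IMQ cells that passed the lymphatic gate, whatever other gate they passed, the log2 ratio was 1.21 in place of 0.61, past 2-fold. In control the wider gate held 764 Lyve1 UMIs among 986513 UMIs, against 729 among 497510. The Lyve1 level was thus lower over the wider gate in control and, by less, in IMQ. Over all cells Lyve1 went from 7.98 to 36.6 CPM. A Lyve1 UMI was found in 0.470% of control and 4.50% of IMQ keratinocytes, which should lack it, and at the common depth in 0.540% of IMQ keratinocytes and none of control. Mrc1 was also present in lymphatic cells, at 42.2 CPM in control (21 UMIs) and 13.8 CPM in IMQ (29 UMIs).

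**Figure D3:**
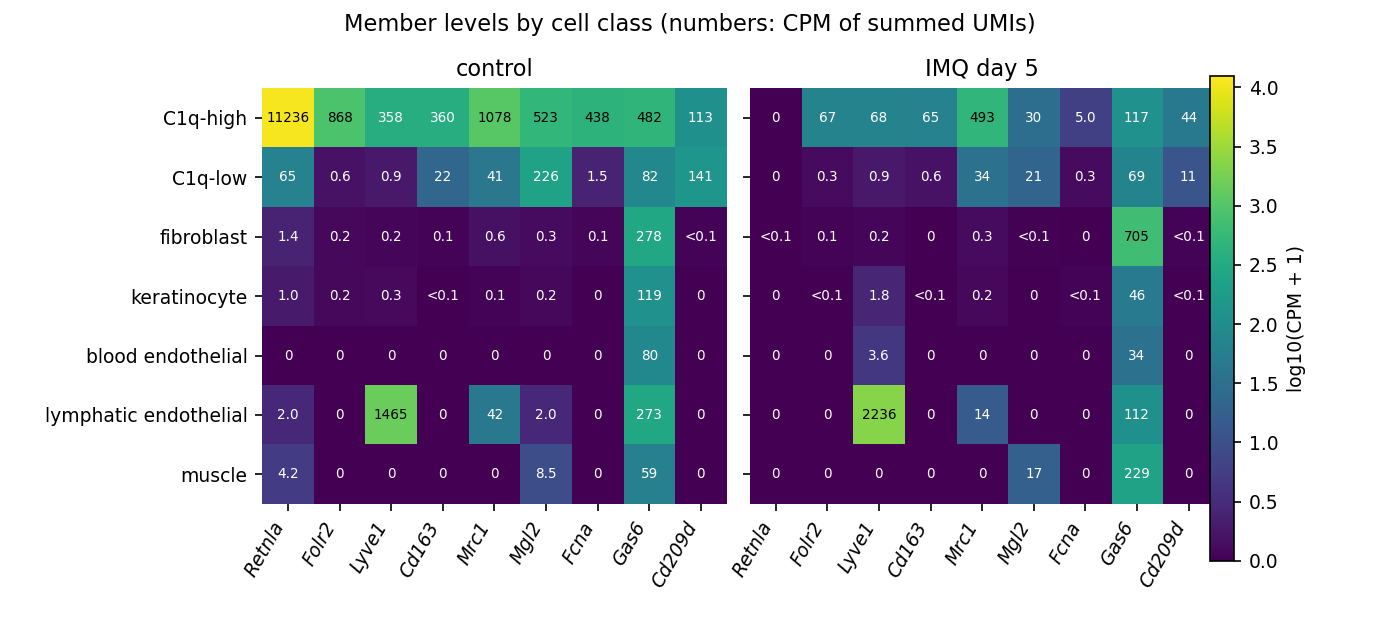
Levels of the 9 members in 7 cell classes of the control (left) and IMQ day 5 (right) libraries. Numbers are CPM of summed UMIs and colours their log10(CPM + 1); Gas6 is spread over all classes, Lyve1 is highest in lymphatic endothelial cells, and Retnla goes from 11236 CPM to 0 in C1q-high cells.

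**Figure D4:**
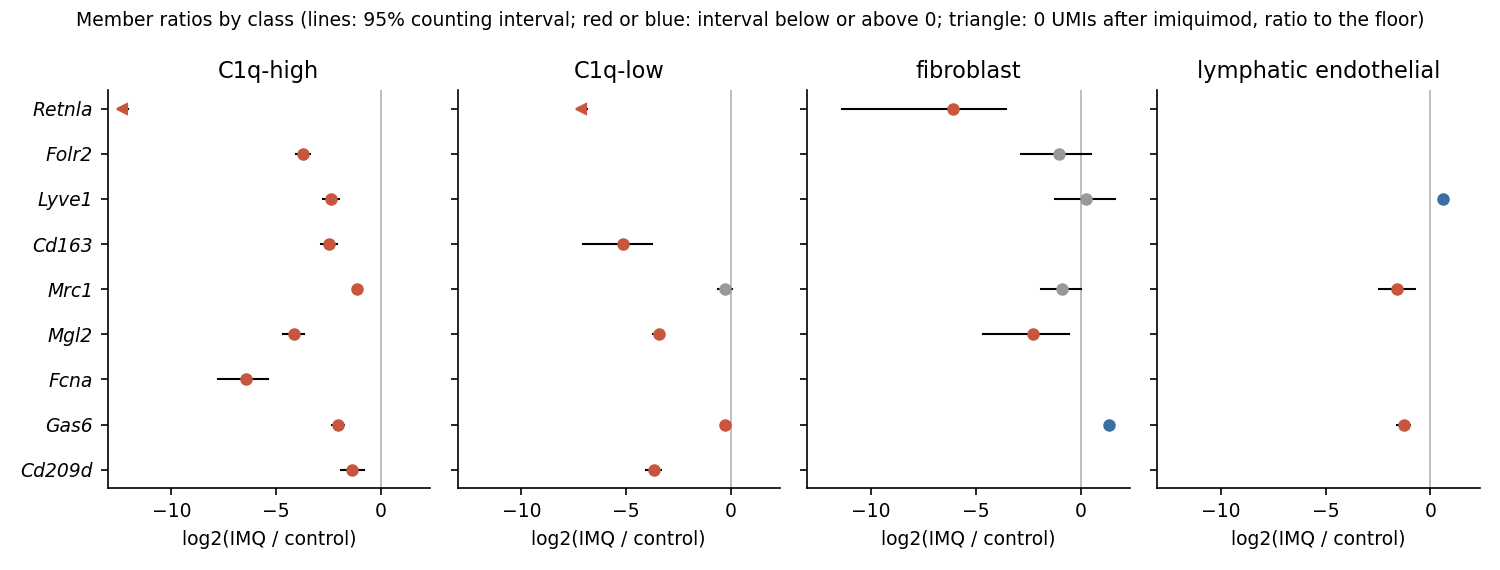
Log2 ratio of IMQ day 5 over control for members with at least 20 UMIs in the class, in 4 classes. Points are ratios of CPM, lines 95% counting intervals, red or blue marks an interval below or above 0 and a triangle marks 0 UMIs after imiquimod, set at the floor; Gas6 is below 0 in C1q-high cells (-2.05) and above it in fibroblasts (1.34).

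The genes closest in pattern to the summed members were sought over the 19 combinations of class and library with at least 30 cells, by Pearson correlation of log2(CPM + 1). The points share libraries and depth, so the correlation is a description. The highest values, 0.86 to 0.80, were those of Cacna1e, Rab11fip5, Blvrb, Rab3il1, Ifih1, Snx9, Slco2b1 and Mfsd11. Because Gas6 sets the sum in most classes, the search was repeated without it, which gave, among others, Cacna1e, Lyl1, Pip5k1c, Tbc1d9, Arhgap17, Ltc4s and Bmp2k (0.86 to 0.82), with 1 gene in common between the searches. The list thus depended on Gas6. Of the genes found without Gas6, Ltc4s, the enzyme that makes leukotriene C4, stood at 386 CPM in control and 119 in IMQ C1q-high cells. The others did not all go that way. Cacna1e went from 17.4 to 8.64 CPM there, Pip5k1c from 58.6 to 46.1 and Bmp2k from 137 to 107, while Tbc1d9 went up from 26.0 to 41.0. No interval or call is given for these levels. Cacna1e and Tbc1d9 had few UMIs, 325 and 408 over the 19 combinations together. The sum of the 9 members went from 15455.5 to 889 CPM. Retnla gave 72.7% of that sum in control C1q-high cells, and Lyve1 gave 94.7% of it in IMQ lymphatic endothelial cells.

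Other genes of resident macrophages were described from a list of 26, chosen with earlier results in view. In C1q-high cells 22 were measured, 15 of them called lower and 0 higher, where 10.1% and 7.12% of all genes were. Their median log2 ratio was -1.75. Clec10a, the lectin CD301a, went from 588 to 39.6 CPM and Ednrb, an endothelin receptor, from 302 to 27.3. Cd209f, another relative of DC-SIGN, went from 612 to 95 CPM and Ccl8, a chemokine, from 2857 to 466. Genes of the list that were not called included Stab1, at 119 and 84.2 CPM, and Il10, at 88.9 and 83.5. General macrophage genes went both ways: of 16 general macrophage genes 2 were called lower (Ctsb and Ctsd) and 4 higher, Cx3cr1, Itgam, Aif1 and Mpeg1, with a median of 0.42. Csf1r, the receptor for the growth factor of macrophages, was at 536 and 304 CPM and was not called.

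Relatives of the members did not all go the same way. Of 17 close relatives 8 were measured, with 6 called lower and 1 higher, where 10.1% and 7.12% of all genes were. The lower ones were Clec10a, Pros1 and the 4 lectins Cd209a, Cd209b, Cd209f and Cd209g. The higher one was Retnlg, a resistin-like gene of neutrophils, which had 0 UMIs in control and 103 in IMQ C1q-high cells, in 1.64% of cells. Of 15 measured genes of the list of scavenger receptors and lectins 9 were called higher, where 7.12% of all genes were, and 3 lower, where 10.1% were. The list's median was 1.28 on the log2 scale. Clec4e, the receptor Mincle, went from 8.68 to 202 CPM and Clec4n, the receptor Dectin-2, from 39.0 to 219.5, while Cd209a went from 41.2 to 2.88 and Colec12 from 34.7 to 6.48.

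Genes of the response to IL-4 and STAT6 went both ways. Of 13 measured 5 were called higher and 2 lower (Irf4 and Egr2), where 7.12% and 10.1% of all genes were, with a median log2 ratio of 0.22. Arg1 had 0 UMIs in control and 326 (235 CPM) in IMQ C1q-high cells, and Chil3, a chitinase-like gene, 0 and 136 UMIs. Ccl17 had 0 and 51 UMIs and Tgm2 0 and 47. The receptor chain Il4ra was at 80.3 and 93.6 CPM and Stat6 at 45.6 and 33.1, and neither was called. Il4 itself had 25 UMIs over all control cells and 406 over all IMQ cells, of which C1q-low cells held 19 and 360. Il13 had 108 and 175 UMIs over all cells.

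Of the receptors for Gas6, Mertk was at 41.2 and 22.3 CPM and Axl at 30.4 and 16.6 CPM in C1q-high cells, with few UMIs behind them (19 and 31, 14 and 23), and neither was called. Pros1, which encodes protein S, the relative of Gas6, was called lower, from 93.3 to 40.3 CPM. In fibroblasts, where Gas6 was higher, Axl was at 264 and 262 CPM and Mertk at 17.1 and 6.65 CPM. Of 10 measured transcription factors 3 were called lower in C1q-high cells, Mef2c (log2 ratio -1.62), Klf2 (-1.52) and Maf (-1.15), and 1 higher, Bhlhe40 (1.54). Spi1 and Cebpb were not called.

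Of 22 monocyte and inflammatory genes measured in the same cells, 11 were called higher and 1 (Ifitm6) lower, where 7.12% and 10.1% of all genes were, with a median of 1.28. Saa3, an acute phase gene, had 1 UMI in control and 406 in IMQ C1q-high cells (292 CPM), but in fibroblasts it stood at 8.09 CPM in control and 9559 in IMQ. The part of RNA from fibroblasts in the macrophage value was not tested. Cxcl3 went from 2 to 98 UMIs, Slpi from 0 to 115 and Thbs1 from 6 to 217. In IMQ C1q-high cells these stood at 70.5, 82.8 and 156 CPM. Fibroblasts had Thbs1 at 91.2 CPM in control and 416 in IMQ, and Slpi at 13.6 and 62.0. Keratinocytes had Slpi at 4.73 and 81.3 CPM and Cxcl3 at 0 and 12.9. The part of RNA from these cells in the C1q-high values was not tested. The monocyte receptor Ccr2 stood at 267 and 149.7 CPM. None of 9 genes of MHC class II and costimulation was called, with a median of 0.05 and H2-Aa at 3640 and 3024 CPM. None of the 4 niche signals measured was called in C1q-high cells. Outside them, Csf1, the growth factor of macrophages, was at 382 CPM in control and 264 in IMQ fibroblasts, and Il34, its alternative ligand in epidermis, at 51.3 and 5.75 CPM in keratinocytes.

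**Figure D5:**
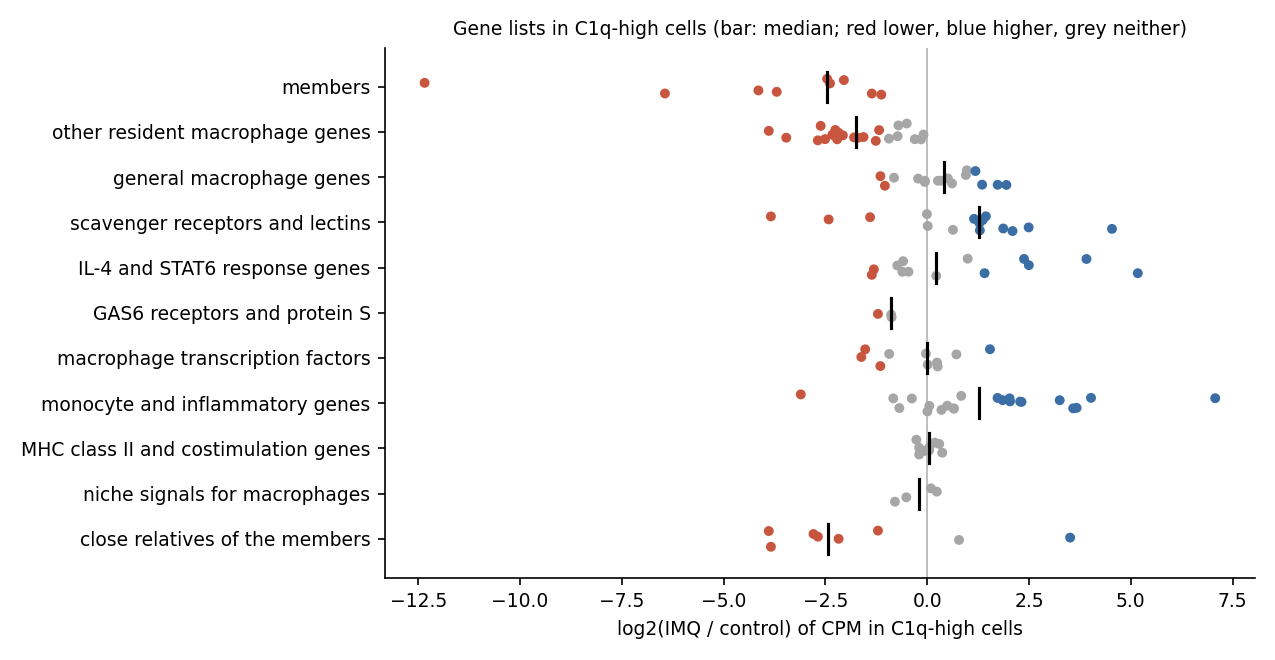
Log2 ratio of IMQ day 5 over control in C1q-high cells for the measured genes of each list. Points are genes, red called lower, blue called higher and grey neither, and the bar is the median of the list: -2.46 for the members, -1.75 for other resident macrophage genes, 1.28 for scavenger receptors and lectins and 0.05 for MHC class II.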

How the data were processed

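Droplet-based 3' single-cell RNA sequencing of skin gave 2 libraries, 1 per group. The authors deposited raw UMI counts per gene and barcode. Cell Ranger 5.0.0 wrote the matrices per the file headers, whereas version 3.0.2 is named in the submitters' processing notes, with Seurat 2.0 and mm10 as the build. Of 10857 barcodes in control (123088680 UMIs) 10297 passed and of 9414 in IMQ (144054978 UMIs) 8499 did; cells with at least 200 genes and at most 10% mitochondrial UMIs were kept, with no doublet removal in the values reported.

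Counts were summed per class and library with Python 3.11.15, numpy 2.4.6, scipy 1.17.1 and pandas 2.3.3. Levels carry exact Poisson intervals, shares exact Clopper-Pearson intervals, a count of 0 the limit that 3 counts give, and ratios exact conditional binomial intervals. Lineage classes other than myeloid were set by marker gates (1% of UMIs for fibroblasts, 3 or 5 UMIs for the others), and cells that passed both endothelial gates were counted as lymphatic, a choice made after the data were seen. With 1 library per group no test was run. The call rule was run on simulated class sums with Poisson counting error, the same error the intervals cover. That run left out an uneven spread between cells, so it cannot speak for genes whose UMIs sit in few cells. GENCODE M21 positions matched 27645 of 27998 gene IDs; promoters came from RefSeq on GRCm38.p6, which held 8 of the 9 members.

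The members and all gene lists were chosen with earlier results of these data known. Besides the members, the text names up to 4 genes per list with the largest ratio, the 10 lowest and 5 highest genes with at least 100 UMIs, and the 8 genes most like the members; Il4, Il13, Il34, Csf1, Stab1, Il10, Csf1r and the genes given for Folr2-positive cells and as called or uncalled list members were named after their values were seen. Alternatives changed the gates, the filters, the normalization, the depth, and the treatment of doublets (Scrublet in scanpy 1.11.5), of free RNA and of single cells. A few genes that the naming rule picks are not reported here.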

Additional observations from a re-analysis of the deposited data

Results flagged for a closer look

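Gas6 and Lyve1 had called ratios in opposite directions in different cell classes of the same libraries. The log2 ratio of IMQ over control of Gas6 was -2.05 in C1q-high cells, -1.36 in keratinocytes, -1.23 in blood endothelial cells and -1.28 in lymphatic endothelial cells, but 1.34 in fibroblasts and 1.95 in cells of the muscle gate, the last from 14 and 53 UMIs. The blood endothelial class held 21 control cells and 14 UMIs of Gas6. That of Lyve1 was -2.39 in C1q-high cells and 2.67 in keratinocytes, the latter from 8 and 95 UMIs with at most 4 in a cell. Keratinocytes should lack Lyve1, and it stood there at 0.276 and 1.76 CPM, against 7.98 and 36.6 CPM over all cells. Whether the keratinocyte values came from free RNA was not tested. With 1 library per group the difference between classes was not tested, and counting intervals are the only error behind it.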

How the results depend on the processing

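All 9 members had a log2 ratio below 0 in C1q-high cells under each of 13 alternatives, and all were called lower except under size factors, where 8 were. The median log2 ratio of the members was -2.46. It became -3.75 with C1q taken as at least 0.1% of UMIs and -4.07 without cells that pass another lineage's gate. It was -3.78 with gates and levels on thinned counts, -3.79 without the highest cell of each gene and library, and -3.16 after subtraction of free RNA. Under the other 8 it stayed between -2.84 and -2.08. These limits are the medians of the members' lower and upper interval bounds, not an interval of the median itself. The alternative without cells with 2 or more Cd207 UMIs (-2.76) was added after the data were seen. Over all genes 775 were called lower and 547 higher; the numbers were 580 and 735 with size factors, 511 and 645 without the highest cell, 1075 and 417 after subtraction of free RNA, 263 and 208 with thinned counts, 680 and 597 without Cd207 cells, and 1217 and 550 with no minimum of UMIs. Lyve1 ranged from -4.89 to -2.22, Gas6 from -3.16 to -1.88 and Mrc1 from -1.51 to -0.97. The share of IMQ C1q-high cells with at least 3 members was 8.91%, and 18.9% without thinning. The log2 ratio of Lyve1 in lymphatic cells was 0.61, and 1.21 over all cells that pass that gate, also chosen after the data were seen.

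Few UMIs lie behind several members in IMQ C1q-high cells, from 7 for Fcna and 41 for Mgl2 to 95 for Lyve1. Scrublet marked 4.1% of control and 1.29% of IMQ cells, below the 8.24% and 6.80% expected, so doublets may remain. No paired analysis was possible because each group has 1 library and no test was run.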
